A study of Mus musculus with 12 samples.

Results

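Genes of chondrocyte hypertrophy and mineral deposition were examined in chondrocytes of mouse articular cartilage by RNA-seq. The set consisted of 10 genes, Col10a1, Alpl, Ibsp, Spp1, Bglap, Mgp, Sp7, Phospho1, Enpp1 and Mef2c, and all 10 were found among the 17536 genes of the deposited values. They were chosen by symbol for their roles in these processes, with earlier results of these data known, so no count over them is independent support. RNA came from superficial zone (SFZ) and deep zone (DZ) cells of 5-day-old C57BL/6 mice, with 3 libraries in each of 4 groups and 12 libraries in all. R3-Cntl mice were Runx3 fl/fl, and R3-cKO mice were Col2a1-Cre; Runx3 fl/fl, so both genotypes carried the floxed alleles and only R3-cKO carried the recombinase. Col2a1 drives Cre in chondrocytes, and deletion of the floxed part was not measured here in any cell type. SFZ cells are those released first when the epiphyseal cartilage is digested with enzymes, and DZ cells are those released from the remaining cartilage by a longer digestion. Values are given as FPKM, a measure scaled by transcript length and library size, a unit inferred from the values. No read counts were used and sequencing depth is unknown, so error was judged from how libraries of a group differ. Log2 fold changes are those of FPKM + 1, followed by ± and the standard error.

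During endochondral ossification, cartilage cells enlarge, secrete type X collagen and prepare their matrix for mineral. Mineral forms where phosphate is released and pyrophosphate, an inhibitor of crystal growth, is removed. Tissue-nonspecific alkaline phosphatase (Alpl) removes pyrophosphate, Phospho1 releases phosphate inside matrix vesicles and bone sialoprotein (Ibsp) nucleates crystals. Enpp1 instead makes pyrophosphate from ATP, and matrix Gla protein (Mgp) and osteopontin (Spp1) restrain crystal growth.

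Runx3 (Entrez gene 12399), the targeted gene, did not have a lower mean FPKM in the libraries labelled R3-cKO of either zone, and the groups overlapped. It ranged from 5.98 to 10.73 FPKM in R3-Cntl SFZ and from 3.42 to 11.83 FPKM in R3-cKO SFZ libraries, and from 7.66 to 12.67 FPKM in R3-Cntl DZ and from 8.14 to 15.95 FPKM in R3-cKO DZ libraries. A gene-level value does not show whether the floxed part was present, and every direction below is that of libraries labelled R3-cKO. The genotypes also differed in a Y-linked transcript. Ddx3y, chosen with its values known, was between 4.96 and 21.09 FPKM in all 6 R3-Cntl libraries and in R3-cKO library 1 of both zones, and at most 0.02 FPKM in the other R3-cKO libraries, 2 and 3 of each zone. Its part in the results below was not tested, and for DZ cells the genotype ratio within number 1, where both libraries carried the transcript, is given for each gene of the set.

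Of the 10 genes, 9 had lower mean log2(FPKM + 1) in R3-cKO than in R3-Cntl DZ cells, and the exception was Spp1. Without Bglap, whose values are low, it was 8 of 9, against 37.7% of the genes tested. The largest differences were those of Mgp, Alpl, Ibsp and Bglap, whose R3-cKO means on the FPKM scale were 0.293, 0.292, 0.334 and 0.193 times the R3-Cntl means. Sp7 was lower by less, and Col10a1, Phospho1, Enpp1 and Mef2c had differences of less than 2 standard errors. None of the 10 passed the adjusted threshold of 0.05 in limma, in which 0 of 11091 genes passed it. An unadjusted p under 0.05 was found for 404 genes, and for 211 without R3-cKO DZ library 2 or 773 without library 3. Bglap reached 1 FPKM in all 3 R3-Cntl but only 1 R3-cKO DZ library, and so passed the filter through the group where it is high. It is left out of the counts over DZ cells that follow. Of the other 9 genes, 3 were lower at an unadjusted p under 0.05 (Alpl, Sp7 and Mgp) and 0 higher, where 1.15% of the genes tested were lower. This share stood for 127 genes, against 212 with quantile normalization and 165 with median-of-ratios size factors. The same 3 had every R3-cKO value below every R3-Cntl value, a separation found for 2.78% of the genes tested. The median log2 fold change was -0.42 over the 9 genes and 0.05 over all genes tested, of which 37.7% were lower. That share was 55.0% with quantile normalization and 49.1% with median-of-ratios size factors. In these bulk samples, fewer cells of a type and less RNA per cell cannot be told apart.

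DZ libraries of the same number deviated together from their group means, so values were also compared within numbers. Of the 9 genes, 6 were lower in R3-cKO than in R3-Cntl in all 3 numbers (Alpl, Ibsp, Mgp, Sp7, Phospho1 and Mef2c), against 13.4% of the genes tested. With the replicate number as a block, 5 of the 9 were lower at an unadjusted p under 0.05 (the 3 above, Ibsp and Phospho1), against 4.98% of the genes tested, and 1830 genes passed in either direction instead of 404. The lowest adjusted p of that fit was 0.0587, which Ibsp and Mgp had, so no gene passed the adjusted threshold there either. Number 1 alone, in which both DZ libraries carried Ddx3y, had 8 of the 9 genes lower, against 32.5% of the genes tested, with a median ratio of R3-cKO to R3-Cntl of 0.773. In numbers 2 and 3, 6 and 9 of the 9 were lower, against 44.8% and 47.5%. The median ratios were 0.677 in number 2 and 0.595 in number 3, and over all genes tested the ratios of FPKM + 1 had medians of 1.07, 1.02 and 1.01.

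In SFZ cells, 9 of the 10 genes had a lower mean log2(FPKM + 1) in R3-cKO, with Mgp as the exception, where 52.5% of the 11537 genes tested were lower. Col10a1 and Phospho1 were lower only on that scale, with R3-cKO means of 1.68 and 1.02 times those of R3-Cntl in FPKM. The median log2 fold change was -0.56 over the 10 genes against -0.01 over all genes tested. Alpl and Sp7 had an unadjusted p under 0.05, 2 of 10 against 0.113% of the genes tested that were lower at that level, and 0 of the 10 were higher. These 2 were also the genes whose R3-cKO values all lay below the R3-Cntl values, against 0.953% of the genes tested. No gene passed the adjusted threshold in SFZ cells, and 34 had an unadjusted p under 0.05. These shares depend on R3-cKO SFZ library 2, without which 1204 of 11436 genes had an unadjusted p under 0.05, 793 of them lower. The genotype effects were then compared between zones in a model of all 12 libraries. No gene passed the adjusted threshold for this difference either, and of the 10 genes only Mgp had an unadjusted p under 0.05, 1 of 10 against 0.841% of the 11765 genes tested. That share ran from 0.309% without R3-Cntl SFZ library 2 to 6.09% without R3-cKO SFZ library 2.

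**Figure D1:**
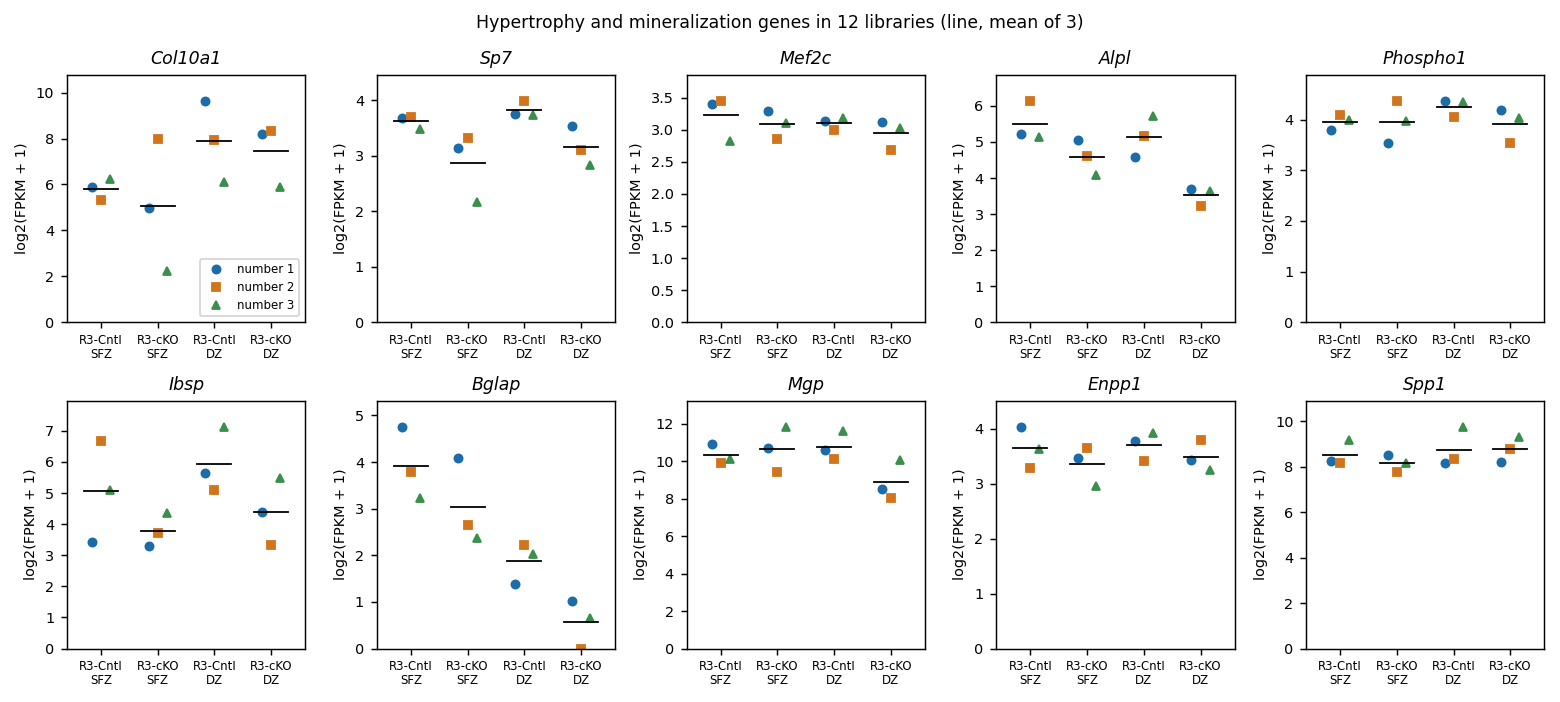
Values of the 10 genes in the 12 libraries, as log2(FPKM + 1) on axes that start at 0, with markers for the replicate number and a line at the mean of 3 libraries. In DZ cells the 3 R3-cKO libraries sit below the 3 R3-Cntl libraries for Alpl, Bglap, Mgp and Sp7.

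Col10a1 (Entrez gene 12813, chromosome 10, mm9 position 34109787 to 34116891, forward strand) encodes type X collagen, the matrix protein that marks hypertrophic chondrocytes. DZ libraries 1, 2 and 3 held 793.36, 241.28 and 68.75 FPKM of it for R3-Cntl against 288.66, 318.09 and 59.19 FPKM for R3-cKO, and values below keep this order of libraries. The 2 genotypes overlapped, and within R3-Cntl the highest DZ library was 11.5 times the lowest. Col10a1 had a log2 fold change of -0.42 ± 1.0 (limma adjusted p = 0.999), with an R3-cKO to R3-Cntl ratio of 0.364 within number 1 and of 1.32 within number 2. It turned to 0.45 without R3-Cntl DZ library 1 and to 0.36 without R3-cKO DZ library 3.

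In SFZ cells Col10a1 was 58.73, 38.52 and 74.51 FPKM for R3-Cntl against 30.61, 254.69 and 3.67 FPKM for R3-cKO. R3-cKO SFZ library 2 was at the level of DZ libraries and library 3 lay below all other 11, a range of 69.4 times within this group. The log2 fold change of -0.75 ± 1.36 turned to 0.68 without R3-cKO SFZ library 3. Apart from Bglap, which has a value of 0, the widest range of any other gene within a group was the 10.3 times of Ibsp in R3-Cntl SFZ libraries.

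Sp7 and Mef2c encode transcription factors. Sp7 (osterix; Entrez gene 170574, chromosome 15, 102187040 to 102197285, reverse strand) is required for osteoblast formation and is also made by prehypertrophic chondrocytes. Its values were 12.40, 14.82 and 12.36 FPKM for R3-Cntl against 10.52, 7.63 and 6.15 FPKM for R3-cKO DZ libraries. In SFZ cells they were 11.83, 11.99 and 10.15 FPKM for R3-Cntl against 7.84, 8.95 and 3.50 FPKM for R3-cKO libraries. In both zones every R3-cKO value was below every R3-Cntl value. Sp7 had a log2 fold change of -0.66 ± 0.19 in DZ cells (limma adjusted p = 0.999) and -0.74 ± 0.31 in SFZ cells (limma adjusted p = 1), and the exact two-sided permutation p was 0.1 in each zone, the smallest that 3 libraries against 3 allow. Without R3-cKO SFZ library 3, the lowest of all 12, the SFZ value was -0.39. Within number 1 the DZ ratio was 0.848, nearer to 1 than the 0.515 and 0.498 of numbers 2 and 3.

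Mef2c (Entrez gene 17260, chromosome 13, 83643033 to 83806684, forward strand), a factor that chondrocytes need for hypertrophy, varied least. All 12 libraries lay between 5.42 and 9.91 FPKM and the genotypes overlapped in both zones. Its log2 fold change was -0.16 ± 0.15 in DZ cells, with a ratio of 0.992 within number 1 and a value of -0.03 without R3-cKO DZ library 2. In SFZ cells it was -0.14 ± 0.21, and -0.34 to -0.03 with a library left out.

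Among the mineralization promoters, Alpl (Entrez gene 11647, chromosome 4, 137297648 to 137352299, reverse strand) had the lowest unadjusted limma p of the set in DZ cells without the block, 0.00106, whereas Ibsp and Mgp had the lowest with it. It measured 22.93, 34.59 and 51.40 FPKM for R3-Cntl against 11.90, 8.43 and 11.43 FPKM for R3-cKO DZ libraries. The groups did not overlap, and their means were 36.3 ± 14.3 and 10.6 ± 1.88 FPKM (SD, n = 3 each). The log2 fold change was -1.63 ± 0.29 (limma adjusted p = 0.999, and 0.147 with the replicate block; exact permutation p = 0.1). R3-cKO was 0.519 times R3-Cntl within number 1, and 0.244 and 0.222 times within numbers 2 and 3.

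SFZ values of Alpl were 36.56, 69.25 and 33.90 FPKM for R3-Cntl against 32.02, 23.39 and 15.97 FPKM for R3-cKO libraries. These groups did not overlap either, although R3-cKO library 1 was within 2 FPKM of R3-Cntl library 3. For these SFZ cells the log2 fold change was -0.92 ± 0.35 (limma adjusted p = 1), and -0.60 without R3-Cntl library 2. The difference between the zones in genotype effect was -0.71 (standard error 0.50, limma adjusted p = 0.999), and -1.03 to -0.43 with a library left out.

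Phospho1 (Entrez gene 237928, chromosome 11, 95685813 to 95693454, forward strand) was between 10.55 and 19.63 FPKM in all 12 libraries. DZ values were 19.57, 15.58 and 19.44 FPKM for R3-Cntl against 17.22, 10.55 and 15.30 FPKM for R3-cKO, lower in each number but with overlapping groups. Its log2 fold change was -0.34 ± 0.20 in DZ cells (limma adjusted p = 0.999; with the replicate block, standard error 0.09 and adjusted p = 0.227; ratio within number 1, 0.88; without R3-cKO DZ library 2, -0.15) and -0.0035 ± 0.22 in SFZ cells.

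Ibsp (Entrez gene 15891, chromosome 5, 104728190 to 104740488, forward strand) and Spp1 (Entrez gene 20750, chromosome 5, 104864137 to 104870069, forward strand) are neighbours, with 123648 bases of mm9 between them, and encode acidic phosphoproteins of the same family. A promoter of each is printed because the genes gave different values in the DZ comparison, and no link between letters and values was tested. RefSeq promoters of the GRCm38.p6 table, each 300 bases around a transcript start, were found for 8 of the 10 genes, 12 promoters in all, and each matched mm9 exactly at a single place. None was in the table for Mgp and Sp7. The letters TGTGGT and TGCGGT, which Runx proteins bind, were searched on both strands, where the other strand reads ACCACA and ACCGCA. They were in 4 of the 12 promoters (33.3%) and in 7362 of 32851 RefSeq promoters of this length (22.4%). Capitals mark the match on the reverse complement, which starts 128 bases before the RefSeq start of this Spp1 transcript at 104864130, and the Ibsp window holds none of these letters. Another RefSeq promoter of Spp1, chr5:104864961-104865260, holds none either and is not printed. A match describes the letters of the window and nothing more. The Ibsp promoter is chr5:104728056-104728355 and the printed Spp1 promoter chr5:104863880-104864179, both on the forward strand of mm9.
Ibsp: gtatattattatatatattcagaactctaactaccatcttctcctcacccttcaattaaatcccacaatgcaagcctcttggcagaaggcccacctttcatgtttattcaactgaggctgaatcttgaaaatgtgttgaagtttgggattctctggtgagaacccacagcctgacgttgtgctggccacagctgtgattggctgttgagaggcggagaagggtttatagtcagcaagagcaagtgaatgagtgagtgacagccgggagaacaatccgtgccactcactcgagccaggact
Spp1: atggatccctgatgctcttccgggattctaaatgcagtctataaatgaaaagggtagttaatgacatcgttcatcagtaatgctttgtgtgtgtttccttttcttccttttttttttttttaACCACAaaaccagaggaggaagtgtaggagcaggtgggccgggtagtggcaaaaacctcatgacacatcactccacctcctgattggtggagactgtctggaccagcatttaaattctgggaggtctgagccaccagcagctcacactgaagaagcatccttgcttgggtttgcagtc

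DZ values of Ibsp were 48.64, 33.31 and 137.32 FPKM for R3-Cntl against 20.11, 8.95 and 44.22 FPKM for R3-cKO libraries. The groups overlapped through the high library 3 of R3-cKO, but within numbers 1, 2 and 3 R3-cKO was 0.413, 0.269 and 0.322 times R3-Cntl. Over all DZ libraries the log2 fold change of Ibsp was -1.54 (limma adjusted p = 0.999), and the replicate block took its standard error from 0.69 to 0.12 with an adjusted p of 0.0587. The value was -0.96 without R3-Cntl library 3 and -2.09 without R3-cKO library 3. R3-Cntl SFZ libraries held 9.72, 100.07 and 33.42 FPKM and those of R3-cKO 8.82, 12.18 and 19.38 FPKM, with the highest values in R3-Cntl libraries 2 and 3 and overlapping groups. The SFZ log2 fold change was -1.27 ± 0.80, and from -2.09 without R3-Cntl library 1 to -0.47 without library 2.

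Spp1 was high in every library. Its DZ values were 284.69, 318.37 and 846.06 FPKM for R3-Cntl against 290.53, 440.01 and 639.62 FPKM for R3-cKO, and those of R3-cKO lay wholly inside the range of R3-Cntl. Spp1 had a log2 fold change of 0.03 ± 0.48 (limma adjusted p = 0.999), with ratios of 1.02, 1.38 and 0.756 within numbers 1, 2 and 3. It was -0.02 with median-of-ratios size factors, so its sign depends on the scaling. SFZ values ran from 283.97 to 576.51 FPKM in R3-Cntl and from 215.79 to 368.80 FPKM in R3-cKO (log2 fold change -0.37 ± 0.34, and -0.05 without R3-Cntl library 3).

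Bglap (Entrez gene 12096, chromosome 3, 88187423 to 88188386, reverse strand) encodes osteocalcin, a protein of bone matrix made by osteoblasts. Its values are uncertain, because the near-identical copy Bglap2 lies 4801 bases away and reads may have been split between them. The promoter of Bglap is shown as that of the gene with the lowest level in DZ cells. It is chr3:88188339-88188638 on the reverse strand of mm9, and the capitals mark a match on the reverse complement that starts 132 bases before the RefSeq start at 88188388.
Bglap: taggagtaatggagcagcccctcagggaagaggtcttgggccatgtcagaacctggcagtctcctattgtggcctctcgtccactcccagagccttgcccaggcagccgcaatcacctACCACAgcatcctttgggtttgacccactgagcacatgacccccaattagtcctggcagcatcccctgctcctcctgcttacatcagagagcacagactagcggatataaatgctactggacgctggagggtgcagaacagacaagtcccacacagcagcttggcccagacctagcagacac

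In SFZ cells Bglap measured 25.78, 12.71 and 8.33 FPKM for R3-Cntl against 16.09, 5.23 and 4.2 FPKM for R3-cKO libraries. The SFZ groups overlapped (log2 fold change -0.88 ± 0.57, and -0.46 to -1.41 with a library left out). R3-cKO was lower in each number, but the numbers were not taken to pair SFZ libraries. DZ values were 1.62, 3.65 and 3.06 FPKM in R3-Cntl, and 1.04 FPKM, listed at 0, and 0.57 FPKM in R3-cKO libraries 1, 2 and 3. The DZ groups did not overlap, at levels where 4 of 6 libraries reached 1 FPKM, so Bglap passed the filter through R3-Cntl. Bglap had a DZ log2 fold change of -1.32 ± 0.33 (limma adjusted p = 0.999, exact permutation p = 0.1), which a pseudocount of 0.1 in place of 1 took to -2.69 ± 0.91. The ratio within number 1 was 0.642. Bglap2 had a DZ log2 fold change of -0.88 ± 0.30, and the sum of Bglap, Bglap2 and Bglap3, added after the values were seen, was 4.57, 8.67 and 8.84 FPKM for R3-Cntl against 2.47, 1.81 and 3.49 FPKM for R3-cKO DZ libraries.

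Mgp (Entrez gene 17313, chromosome 6, 136820957 to 136824326, reverse strand) had the highest mean of the set in every group. It measured 1552.57, 1104.00 and 3156.83 FPKM for R3-Cntl against 370.60, 265.57 and 1064.88 FPKM for R3-cKO DZ libraries. All 3 R3-cKO libraries lay below all 3 R3-Cntl libraries, the nearest pair being R3-cKO library 3 and R3-Cntl library 2. Mgp had a log2 fold change of -1.89 (limma adjusted p = 0.999, exact permutation p = 0.1), and its standard error of 0.60 became 0.15 with the replicate block, with an adjusted p of 0.0587. R3-cKO was 0.239, 0.241 and 0.337 times R3-Cntl in numbers 1, 2 and 3, each from 1 library per genotype, and the part of Ddx3y was not tested.

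SFZ values of Mgp were 1963.68, 962.58 and 1124.45 FPKM for R3-Cntl against 1659.24, 682.81 and 3582.52 FPKM for R3-cKO. R3-cKO libraries 1 and 2 were below and library 3 was above the R3-Cntl library of their number, which was not taken to pair them. The log2 fold change was 0.31 ± 0.63, and -0.27 without R3-cKO SFZ library 3. The genotype effect was 2.21 lower on the log2 scale in DZ than in SFZ cells, with a standard error of 0.95 (limma adjusted p = 0.999). Leaving out each of the 12 libraries in turn gave -2.82 to -1.62.

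Enpp1 (Entrez gene 18605, chromosome 10, 24357720 to 24431965, reverse strand) stayed between 6.78 and 15.25 FPKM in all 12 libraries. Its DZ values were 12.68, 9.70 and 14.19 FPKM for R3-Cntl against 9.80, 12.88 and 8.45 FPKM for R3-cKO, with overlapping groups. Enpp1 had a log2 fold change of -0.22 ± 0.20 in DZ cells, with a ratio of 0.773 within number 1, and -0.29 ± 0.25 in SFZ cells. With a library left out, these values ran from -0.37 to -0.09 in DZ and from -0.47 to -0.09 in SFZ cells.

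**Figure D2:**
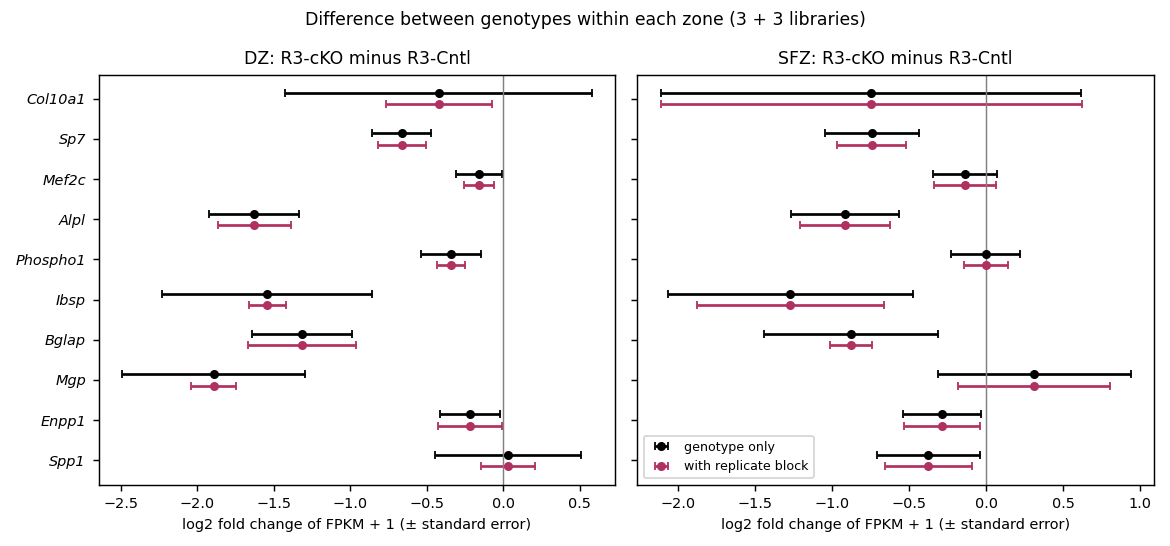
Log2 fold change of FPKM + 1 between R3-cKO and R3-Cntl in DZ cells (left) and SFZ cells (right), with bars of 1 standard error from limma, for genotype alone (black) and with the replicate number as a block (red). In DZ cells the bars of Mgp and Ibsp shorten from 0.60 and 0.69 to 0.15 and 0.12 with the block.

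Pairs of these genes were then compared within each DZ library, since a ratio within a library does not depend on the scaling between libraries. Of 8 chosen pairs, 2 had groups that did not overlap, Alpl to Enpp1 and Ibsp to Spp1, and both ratios were lower in R3-cKO, where 9.07% of all gene pairs did not overlap in either direction. Alpl was 1.81, 3.57 and 3.62 times Enpp1 in R3-Cntl libraries 1, 2 and 3 and 1.21, 0.655 and 1.35 times in R3-cKO libraries. The log2 difference was -1.48 (standard error 0.46, exact two-sided permutation p = 0.1, and 0.4 adjusted over the 8 pairs), and within number 1 it was -0.58.

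Ibsp was 0.171, 0.105 and 0.162 times Spp1 in R3-Cntl and 0.0692, 0.0203 and 0.0691 times in R3-cKO DZ libraries. Every R3-cKO ratio was below every R3-Cntl ratio. The log2 difference was -1.63 (standard error 0.63, exact permutation p = 0.1, adjusted 0.4), with -1.30, -2.36 and -1.23 in numbers 1, 2 and 3, and -1.04 without R3-cKO library 2.

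The ratios of Alpl and Ibsp to Mgp did not separate the genotypes. Alpl to Mgp was 0.0148, 0.0313 and 0.0163 in R3-Cntl and 0.0321, 0.0317 and 0.0107 in R3-cKO, a log2 difference of 0.18 (standard error 0.63, exact permutation p = 0.8) that turned to -0.03, -0.09 or -0.08 without R3-Cntl library 1, R3-cKO library 1 or R3-cKO library 2. Ibsp to Mgp kept to a narrow range, 0.0302 to 0.0435 in R3-Cntl and 0.0337 to 0.0543 in R3-cKO (log2 difference 0.30, standard error 0.26, exact permutation p = 0.3). Its log2 difference was 0.12 without R3-cKO library 1 and 0.46 without R3-cKO library 2. Within the R3-Cntl DZ group this ratio varied less than either gene, as Ibsp spread over 4.12 and Mgp over 2.86 times. Phospho1 to Enpp1 was 1.37 to 1.61 in R3-Cntl and 0.819 to 1.81 in R3-cKO (log2 difference -0.13, standard error 0.38, exact permutation p = 1), and it became 0.25 without R3-cKO library 2.

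Ratios to Col10a1 followed the wide range of that gene. Ibsp to Col10a1 ran from 0.0613 to 2 in R3-Cntl and from 0.0281 to 0.747 in R3-cKO, and Alpl to Col10a1 from 0.0289 to 0.748 and from 0.0265 to 0.193 (exact permutation p = 0.6 for each). Col10a1 to Mgp was higher in R3-cKO in all 3 numbers, with log2 differences of 0.61, 2.45 and 1.35, while the groups overlapped (mean 1.47, standard error 1.94, exact permutation p = 0.5). That mean was 0.16 without R3-Cntl library 3 and 2.84 without R3-cKO library 3. Over the 36 pairs of the 9 genes above 0 in every DZ library, 10 had groups that did not overlap and 21 differed in the same direction in all 3 numbers. Over all pairs of 11083 genes the shares were 9.07% and 41.2%. The 10 pairs, named with their values known, did not share a direction between promoters and inhibitors. Alpl was lower relative to Spp1 and Enpp1, and Ibsp relative to Spp1, but Mgp was lower relative to Phospho1 (log2 difference -1.53). Within the promoters Alpl was lower relative to Phospho1 (-1.35), and within the inhibitors Spp1 was higher relative to Mgp (1.93). The other 4 pairs were Alpl, Mgp, Sp7 and Phospho1 to Mef2c, each lower in R3-cKO. The pairs share genes and are not independent of each other.

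**Figure D3:**
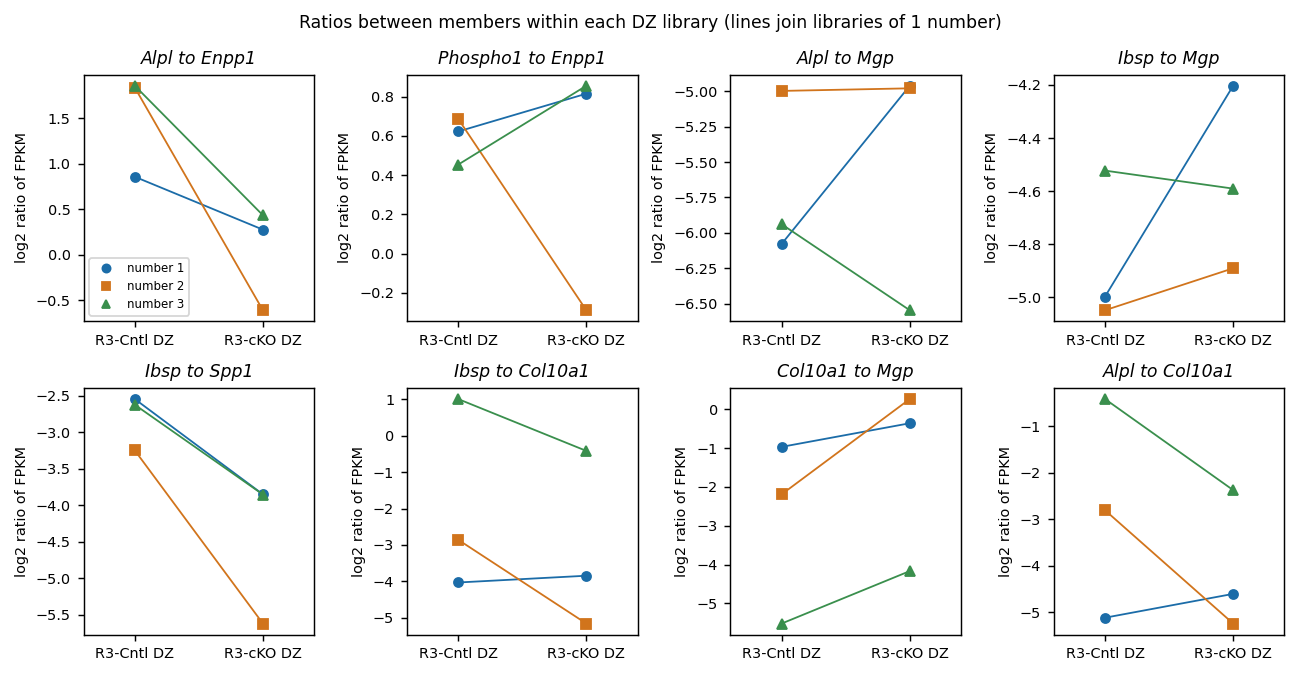
Log2 ratio of FPKM between 2 genes within each DZ library for 8 pairs, with lines that join both genotypes of each number; each panel has its own vertical range. Alpl to Enpp1 and Ibsp to Spp1 are the pairs in which all R3-cKO points lie below all R3-Cntl points.

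The balance of promoters and inhibitors was described for each library as the mean log2(FPKM + 1) of Alpl, Phospho1 and Ibsp minus that of Enpp1, Mgp and Spp1. It is a score over chosen genes and has no test. In DZ cells it was -2.65, -2.51 and -2.70 in R3-Cntl libraries 1, 2 and 3 and -2.63, -3.52 and -3.15 in R3-cKO libraries 1, 2 and 3. R3-cKO library 1 was at the level of R3-Cntl, and libraries 2 and 3 were below it, so the groups overlapped. Their means were -2.62 ± 0.10 and -3.10 ± 0.45 (SD, n = 3 each), a difference of -0.48 that became -0.12 without Spp1 among the inhibitors and lay between -0.71 and -0.27 when each library was left out.

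Both sides of this balance were lower in R3-cKO DZ libraries of each number. The promoter mean was 4.86, 4.77 and 5.73 in R3-Cntl and 4.09, 3.36 and 4.39 in R3-cKO, and the inhibitor mean 7.51, 7.28 and 8.43 in R3-Cntl and 6.72, 6.88 and 7.54 in R3-cKO. In SFZ cells the balance was -3.59, -1.49 and -2.90 in R3-Cntl and -3.61, -2.71 and -3.51 in R3-cKO libraries. The SFZ groups overlapped, and their difference of -0.62 was -0.03 without R3-Cntl library 2.

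**Figure D4:**
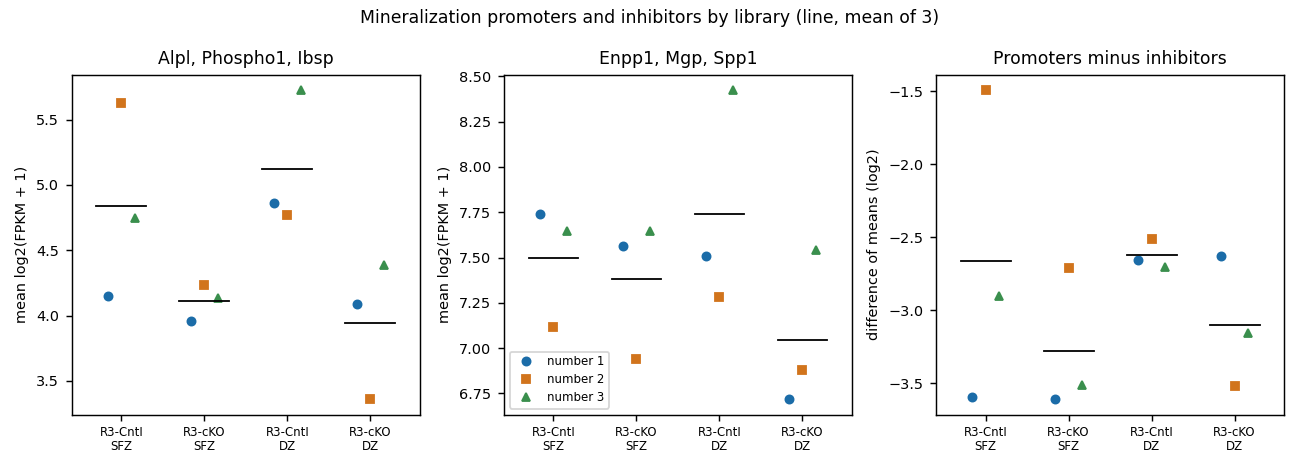
Mean log2(FPKM + 1) of the promoters (left) and inhibitors (middle) of mineralization and their difference (right) in each library, with a line at the mean of 3; the vertical axes do not start at 0. In DZ cells R3-cKO library 1, at -2.63, sits within the R3-Cntl range of -2.70 to -2.51, and libraries 2 and 3 sit below it.

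The zones were compared within each genotype to ask how expression differed between the cells released from each zone. The methods describe cells seeded as a monolayer before use, and expression within the cartilage itself was not measured. In R3-Cntl cells, by mean FPKM, the order in the DZ was Mgp (1938), Spp1 (483), Col10a1 (368), Ibsp (73.1), Alpl (36.3), Phospho1 (18.2), Sp7 (13.2), Enpp1 (12.2), Mef2c (7.62) and Bglap (2.78). Spp1 and Col10a1, Col10a1 and Ibsp, Ibsp and Alpl, and Sp7 and Enpp1 were neighbours whose libraries overlapped. Between the zones of R3-Cntl, none of the 10 passed the adjusted threshold, against 1.24% of 11336 genes. Those 140 genes were 1 with quantile normalization, 17 with size factors and 0 to 505 with a library left out. At an unadjusted p under 0.05, Col10a1 was higher and Bglap lower in the DZ, 2 of 10 against 27.4% of the genes tested. With a library left out, this share ran from 13.5% (R3-Cntl SFZ library 2) to 29.5% (R3-Cntl SFZ library 1).

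Col10a1 was higher in R3-Cntl DZ than SFZ libraries by a log2 fold change of 2.08 ± 0.82 (limma adjusted p = 0.164), 13.5 and 6.26 times in numbers 1 and 2 and 0.923 times in number 3. The numbers were not taken to pair the zones of R3-Cntl. The log2 fold change became 1.21 without R3-Cntl DZ library 1. Every SFZ value of Bglap was above every DZ value (log2 fold change -2.04 ± 0.41, limma adjusted p = 0.0615). That adjusted p was 0.0433 without R3-Cntl SFZ library 1 and 0.039 with all 12 libraries in a model. Sp7 was higher in each DZ library than in each SFZ library by a small amount (log2 fold change 0.20 ± 0.12). The median over all genes tested was -0.17, and it was 0.05 with quantile normalization and 0.01 with median-of-ratios size factors, so small differences between zones depend on the scaling.

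In R3-cKO cells 0 of the 10 genes passed the adjusted threshold between zones, against 0.0176% of the genes tested. Bglap passed the filter through the SFZ libraries, since 1 DZ library of R3-cKO reached 1 FPKM, and is left out of the counts that follow. Of the other 9 genes, Alpl had an unadjusted p under 0.05, 1 of 9 against 14.1%. Across the zones of R3-cKO, same-number libraries deviated together from their group means. With the replicate number as a block, Mgp passed the adjusted threshold, 1 of 9 against 3.11% of the genes tested. Mgp was lower in DZ than SFZ libraries of each number, 0.223, 0.389 and 0.297 times, with a log2 fold change of -1.76 whose standard error was 0.74 (limma adjusted p = 0.364) and 0.19 with the block (adjusted p = 0.035). Bglap had a log2 fold change of -2.48 ± 0.50 (limma adjusted p = 0.141, and 0.0363 with the block), or -4.08 ± 0.99 with a pseudocount of 0.1. Alpl was 0.372, 0.360 and 0.716 times as high in the DZ (log2 fold change -1.06 ± 0.27, limma adjusted p = 0.187, and 0.0669 with the block), and Col10a1 was higher in the DZ in each number (log2 fold change 2.40 ± 1.47, limma adjusted p = 0.526; with the block, adjusted p = 0.109 and standard error 0.69). At an unadjusted p under 0.05 the block left Alpl and Mgp lower and Col10a1 higher, 2 and 1 of 9 against 22.8% and 7.2% of the genes tested. Without the block, 1258 genes were lower and 344 higher, but 669 and 702 with quantile normalization, so this split depends on the scaling. The value of Col10a1 was 0.98 without R3-cKO SFZ library 3 and 3.87 without library 2. The zone comparisons share their libraries with the genotype comparisons, so the 4 comparisons are not independent of each other.

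Other genes of the same pathways were taken from lists. Over all genes tested in DZ cells, 1.15% were lower and 2.5% higher at an unadjusted p under 0.05, and 4.98% and 11.5% with the replicate block. Without the block these were 127 and 277 genes, but 212 and 237 with quantile normalization, so this split depends on the scaling. In SFZ cells the shares were 0.113% lower and 0.182% higher. Of the 24 regulators and signals of hypertrophy, 22 were tested in DZ cells, where 3 were lower and 0 higher at an unadjusted p under 0.05, 5 lower and 2 higher with the replicate block, and 0 passed the adjusted threshold. Their median log2 fold change was -0.08 in DZ and -0.02 in SFZ cells, where 2 of 22 were lower and 0 higher. Bmp6, a bone morphogenetic protein of hypertrophic cartilage, was 6.84, 4.57 and 4.04 FPKM for R3-Cntl against 2.78, 2.27 and 2.30 FPKM for R3-cKO DZ libraries (log2 fold change -0.81 ± 0.19, limma adjusted p = 0.999). Pth1r, the receptor through which parathyroid hormone-related protein delays hypertrophy, was 77.76, 57.25 and 60.59 FPKM against 56.19, 35.20 and 35.27 FPKM (log2 fold change -0.64 ± 0.22). Both had DZ groups that did not overlap, but they were named for their low p, which is not independent of this. Among the 22 tested, 4 were lower and 0 higher without overlap, against 2.78% of all genes tested that were lower. Mmp13, the collagenase of late hypertrophic cartilage, had a log2 fold change of -1.67 ± 0.80 (with the block, adjusted p = 0.147 and standard error 0.27), Runx1 of 0.52 ± 0.27, and Atf4, the most abundant gene of the list, of -0.10 ± 0.21.

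Genes that handle phosphate and pyrophosphate gave no common direction in DZ cells. Of 13 listed, 12 were in the data and 10 were tested in DZ cells, 6 of them lower, with a median of -0.02. At an unadjusted p under 0.05, 1 was lower and 0 higher, with the block 3 lower and 1 higher, and 0 passed the adjusted threshold. In SFZ cells 8 of 10 were lower, with a median of -0.15, and 0 had an unadjusted p under 0.05. Nt5e, which makes adenosine from AMP, was 59.25, 68.59 and 64.02 FPKM for R3-Cntl against 53.96, 47.39 and 44.08 FPKM for R3-cKO DZ libraries (log2 fold change -0.40 ± 0.13). Smpd3, a sphingomyelinase needed for cartilage mineralization, was 69.61, 86.04 and 171.43 FPKM against 49.35, 52.61 and 130.38 FPKM (log2 fold change -0.53 ± 0.47, standard error 0.09 with the block). Entpd5 had a log2 fold change of -0.30 ± 0.30, and Anxa2, an annexin of matrix vesicles and the most abundant of the list, was higher in each number (log2 fold change 0.49 ± 0.26, standard error 0.10 with the block).

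Of 12 listed genes of bone matrix and of the family of Ibsp and Spp1, 11 were in the data and 5 were tested in DZ cells. Of these 5, 4 were lower, with a median of -0.21, and Bglap2 was the gene with an unadjusted p under 0.05, with and without the block. In SFZ cells 0 of 5 reached it. The family members Dmp1 and Mepe, with Phex and Ahsg, stayed below 1 FPKM in all 12 libraries, and Ahsg was listed at 0 in all 6 DZ libraries. Sparc, the most abundant gene of this list, was between 2228.25 and 4800.93 FPKM in all libraries.

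Markers of the cell types that these preparations could hold were summed in each library. The chondrocyte list, with 13 of 14 genes in the data and Col2a1 as its most abundant gene, summed to 39680, 24880 and 31990 FPKM for R3-Cntl against 26140, 17210 and 31170 FPKM for R3-cKO DZ libraries, and to between 5590 and 17420 FPKM in SFZ libraries. No gene of that list was at 0 in all libraries of a zone. In DZ cells 12 of its 13 genes were lower in R3-cKO, with a median log2 fold change of -0.59, which was lower than that over the 9 genes of hypertrophy and mineralization. At an unadjusted p under 0.05, 2 of the 13 were lower and 0 higher, with the block 9 lower and 0 higher, and 0 passed the adjusted threshold, while in SFZ cells 0 of 13 reached the unadjusted level and 7 were lower. Hapln1, which links proteoglycans to hyaluronan, was 821.44, 664.13 and 590.39 FPKM for R3-Cntl against 474.75, 341.92 and 441.24 FPKM for R3-cKO DZ libraries (log2 fold change -0.72 ± 0.20), and Col11a2 had a log2 fold change of -0.69 ± 0.22. Matn3 and Col9a2 had log2 fold changes of -0.77 and -0.88, with standard errors of 0.58 and 0.48 that became 0.20 and 0.24 with the block, and Col2a1 of -0.29 ± 0.30. The part of these differences in the results for the 10 genes was not tested.

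Osteoblast and osteocyte markers, all 11 in the data with Col1a1 as the most abundant, summed to 105, 526 and 1946 FPKM for R3-Cntl against 180, 477 and 1145 FPKM for R3-cKO DZ libraries, and to 3553 to 10260 FPKM in SFZ libraries. Among them Dmp1, Mepe, Sost and Phex were below 1 FPKM in all 12 libraries. In DZ cells 4 of the 5 tested were lower, with a median of -0.46, and 1 was lower at an unadjusted p under 0.05, or 2 with the block, none higher. These were Bglap2 and, with the block, Postn (log2 fold change -0.78 ± 0.54, standard error 0.26 with the block), while Col1a1 was 24.40, 241.74 and 960.90 FPKM for R3-Cntl against 52.76, 244.21 and 576.37 FPKM for R3-cKO. In SFZ cells 1 of 5 was lower and 0 reached the unadjusted level. DZ library 3 of each genotype had the highest osteoblast sum, the highest Ibsp, Spp1 and Mgp and the lowest Col10a1 of its group, and the part of these markers in the results was not tested.

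Superficial zone and fibroblast markers, all 10 in the data and led by Col3a1, summed to 37.8, 121 and 301 FPKM for R3-Cntl against 70.3, 144 and 402 FPKM for R3-cKO DZ libraries, higher in R3-cKO in each number, and to 581 to 2194 FPKM in SFZ libraries. Of 7 tested in DZ cells 2 were lower, with a median of 0.44, and 0 reached an unadjusted p under 0.05, or 1 lower and 2 higher with the block (Postn lower, Col3a1 and Scx higher). Scx, a transcription factor of tendon, was 4.27, 10.09 and 5.47 FPKM for R3-Cntl against 12.93, 16.07 and 7.77 FPKM for R3-cKO (log2 fold change 0.82 ± 0.35, standard error 0.20 with the block). In SFZ cells 1 of 10 was lower at the unadjusted level and 5 of 10 were lower in all. No gene of the list was at 0 in all DZ libraries, and its part in the results was not tested.

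Of 8 osteoclast markers, all in the data and led by Ctsk, 4 (Calcr, Ocstamp, Dcstamp and Oscar) were below 1 FPKM in all 12 libraries. The list summed to 89.4, 68.2 and 46.5 FPKM for R3-Cntl against 73.5, 55.8 and 40.9 FPKM for R3-cKO DZ libraries, nearly all of it Ctsk (log2 fold change -0.26 ± 0.30, standard error 0.07 with the block). Of the 2 tested in DZ cells 0 reached an unadjusted p under 0.05, or 1 with the block, and in SFZ cells, where the sums were 67.2 to 179 FPKM, 0 of 3. Macrophage markers, 9 of 10 in the data and led by Lyz2, summed to 8.40, 7.42 and 24.4 FPKM for R3-Cntl against 6.72, 5.21 and 3.93 FPKM for R3-cKO DZ libraries, lower in each number. Lyz2 was 5.65, 4.69 and 16.17 FPKM against 4.36, 2.0 and 2.69 FPKM (log2 fold change -1.15 ± 0.44), and it was the gene lower at an unadjusted p under 0.05 of the 2 tested, with and without the block. In SFZ cells the macrophage sum ran from 8.05 to 174 FPKM and 0 of 9 reached the unadjusted level.

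Endothelial markers, all 6 in the data and led by Pecam1, summed to at most 0.41 FPKM in DZ and 6.03 FPKM in SFZ libraries, and Emcn was listed at 0 in all 6 DZ libraries. Blood cell markers, 5 of 6 in the data and led by S100a9, summed to at most 0.69 FPKM in DZ and 9.76 FPKM in SFZ libraries. No endothelial or blood gene was tested in either zone, and the part of these 4 cell types in the results was not tested. Spp1 is also made by osteoclasts and macrophages, and the part of these cells in its values was not tested.

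**Figure D5:**
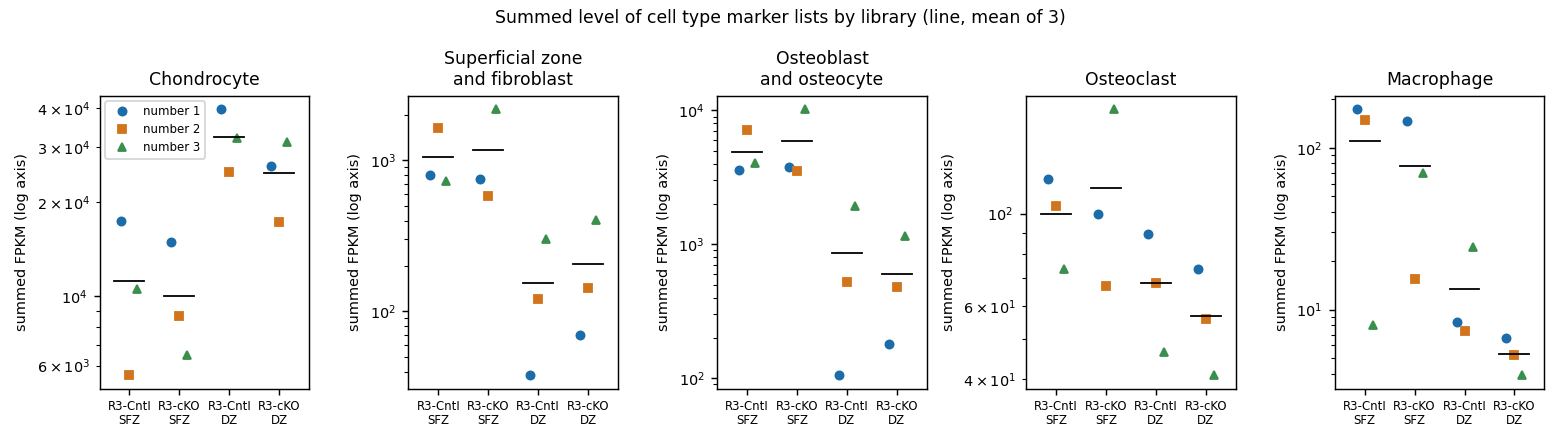
Summed FPKM of 5 marker lists in each library, on log axes, with markers for the replicate number and a line at the mean of 3. Chondrocyte sums are 17210 to 39680 FPKM in DZ and 5590 to 17420 FPKM in SFZ libraries, and osteoblast and osteocyte sums 105 to 1946 FPKM in DZ and 3553 to 10260 FPKM in SFZ libraries.

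The genes whose profile over the 12 libraries was most like that of Ibsp, Col10a1 and Mgp were sought among 11358 genes whose mean reached 1 FPKM. These correlations describe libraries that share zones, genotypes and numbers. Those nearest to Col10a1 were Ssx2ip (Pearson r = 0.97), Odc1 (0.97) and Mphosph6 (0.96, 12 libraries each). Odc1, the first enzyme of polyamine synthesis, was 177.78, 154.68 and 88.62 FPKM for R3-Cntl against 137.97, 134.04 and 102.85 FPKM for R3-cKO DZ libraries. In SFZ cells it shared the high value of Col10a1 in R3-cKO library 2, at 127.66 FPKM, and the low value in library 3, at 56.45 FPKM. For Mgp they were 6330403K07Rik (0.93), Gba2 (0.92) and Ric8b (0.90). For Ibsp the nearest genes were less alike, with Snupn at 0.78, Gpsm1 at 0.76 and 2210408I21Rik at 0.76. Snupn itself varied little, from 5.36 to 7.21 FPKM.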

How the data were processed

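Chondrocytes of the SFZ and DZ of R3-Cntl and R3-cKO mice were profiled by RNA-seq, with 3 libraries per group. The methods describe cells seeded as a monolayer before use. Libraries were sequenced on a BGIseq-500 as paired-end reads and mapped to mm9, and the submitters' processing notes name Bowtie 0.12.2. The authors deposited a value per gene on a linear scale, read here as FPKM scaled between libraries by TMM. This unit was inferred from the values, and the methods name quantile normalization and log2 CPM instead. Library sums lay between 392241 and 429213 FPKM. Depth is unknown, so the counting error of low values is unknown. Housekeeping genes were above 0 in every library, with the lowest of those examined at 13.08 FPKM.

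The deposited values were taken to log2(FPKM + 1), not normalized again, and fitted by limma 3.58.1 with a mean-variance trend under R 4.3.3. A gene was tested if 3 or more of the compared libraries reached 1 FPKM, with Benjamini-Hochberg adjustment over all genes tested. The log2(FPKM + 1) scale understates the change of low genes. Ratios were tested by exact two-sided permutation. Python 3.11.15, pandas 2.3.3, NumPy 2.4.6 and matplotlib 3.10.9 were used for the rest, and the fits were tested on simulated data. The simulation gave every gene the same spread and no deviation shared by number, unlike these data, so it does not show how the fits perform on them. The members, ratio pairs and lists were chosen with earlier results of these data known, so no count over them is independent support. Besides members, Runx3 and Ddx3y, genes were named as the most abundant of each list, up to 4 genes of each list with the lowest unadjusted p under 0.05 in DZ cells with or without the block, and the 3 nearest by correlation. Of 105 list genes, 5 were not found by symbol.

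Pairing by number was checked by correlating their deviations from the group means over 11359 genes. Same-number correlations were 0.65, 0.78 and 0.69 between genotypes in DZ cells and 0.42, 0.78 and 0.65 between zones in R3-cKO. A legend of the study calls the mice littermates for both zones, without saying that the numbers mark litters. All these correlations exceed 0.1, so both comparisons were also fitted with the number as a block. Alternatives covered the pseudocount, the filter, the scaling, all 12 libraries in a model, the block and leaving out each library.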

Additional observations from a re-analysis of the deposited data

How the results depend on the processing

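The number of the 10 genes past the adjusted threshold stayed at 0 under every alternative run, including each library left out, for the genotype comparisons in both zones and for the difference between zones, where size factors and the filter on a mean of 10 FPKM were not run. Between zones it was 1 instead of 0 with all 12 libraries in a model, in R3-Cntl and in R3-cKO, and 2 in R3-cKO with the replicate block. Those in R3-cKO include Bglap, which passed the filter through SFZ libraries alone. Leaving out each library gave 0 to 1 genes in R3-Cntl. The replicate block changed no other call. It left 0 members past the threshold in DZ and SFZ genotype comparisons, in R3-Cntl zones and in the difference between zones. Same-number correlations were 0.79, -0.09 and -0.42 between genotypes in SFZ cells and 0.58, 0.11 and -0.15 between the zones of R3-Cntl, so the numbers were not taken to pair these libraries. In SFZ cells the block moved the genes at an unadjusted p under 0.05 from 34 to 51, and in R3-Cntl zones those past the adjusted threshold from 140 to 831. Not every library there correlates best with its own number. R3-Cntl SFZ library 3 deviated together with library 2 of R3-cKO SFZ (0.69) and of R3-Cntl DZ (0.58). R3-Cntl SFZ library 2 did so with library 3 of these groups (0.45 and 0.38). Ratios within numbers 2 and 3 of these comparisons therefore do not set the most alike libraries against each other.

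In DZ cells 9 or 10 of the 10 genes, here with Bglap included, were lower under every scaling. Without Bglap, 8 of 9 were lower in the main fit. With a mean of at least 10 FPKM it was 7 of 8, where Bglap and Mef2c have no value. The sum over the Bglap copies and the balance without each library were added after seeing the data. The pairs of genes whose DZ groups did not overlap were 2 to 4 when a library was left out. Directions turned as follows, and the cause was not tested. With quantile normalization, SFZ Phospho1 was 0.016, Mef2c 0.121 between R3-Cntl zones and 0.008 between R3-cKO zones, Phospho1 0.083 between R3-cKO zones, and Enpp1 -0.021 in the difference between zones. With median-of-ratios size factors, DZ Spp1 was -0.019, SFZ Phospho1 0.005, Mef2c 0.055 between R3-Cntl zones and Phospho1 0.083 between R3-cKO zones. All other turns came from leaving out a library. The ranges were -1.308 to 0.447 for DZ Col10a1, -0.258 to 0.526 for DZ Spp1, -2.212 to 0.676 for SFZ Col10a1, -0.272 to 0.923 for SFZ Mgp and -0.209 to 0.209 for SFZ Phospho1. Between R3-Cntl zones they were -0.288 to 0.532 for Spp1 and -0.119 to 0.249 for Enpp1, and between R3-cKO zones -0.072 to 0.501 for Sp7, -0.254 to 0.163 for Phospho1 and -0.07 to 0.275 for Enpp1. For the difference between zones they were -1.099 to 1.788 (Col10a1), -1.069 to 0.55 (Ibsp), -0.854 to 0.089 (Bglap), -0.274 to 0.298 (Sp7), -0.131 to 0.249 (Enpp1) and -0.133 to 0.18 (Mef2c). Among the DZ ratios they were -0.325 to 0.247 for Phospho1 to Enpp1, -0.087 to 0.704 for Alpl to Mgp and -2.535 to 0.304 for Ibsp to Col10a1. The depth behind low values such as those of Bglap is unknown.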
